A study of Mus musculus with 8 samples.

Results

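The 8 genes described here handle the entry of glucose into glycolysis and the exit of its products: the glucose transporters Slc2a1 and Slc2a3, the lactate transporters Slc16a1 and Slc16a3, the pyruvate dehydrogenase kinases Pdk1 and Pdk3, and the fructose-2,6-bisphosphate enzymes Pfkfb3 and Pfkfb4. Their members in the data are the accessible regions within 10 kb of a gene body, on GRCm38 coordinates. Peaks of 8 ATAC-seq lists were merged where they overlapped by at least 1 bp, which gave 40784 regions. Of these, 27 lay within 10 kb of the 8 genes: 6 at Slc2a1, 3 at Slc2a3, 2 each at Slc16a1, Slc16a3 and Pdk1, 1 at Pdk3, 6 at Pfkfb3 and 5 at Pfkfb4.

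ATAC-seq uses the Tn5 transposase to insert adapters into open chromatin. The libraries came from BV2, a mouse microglial cell line, grown either alone (monoculture) or on top of GL261, a mouse glioma cell line (co-culture). Each culture was kept for 16 h either at 21% oxygen (normoxia) or at below 0.1% oxygen (hypoxia), with 2 biological replicates in each of the 4 groups. Per the labels' protocols, cells were fixed with formaldehyde before they returned to room oxygen, and cells positive for the leukocyte marker CD45 or for GFP were sorted before transposition; which of the 2 gates gave each library is not stated there. BV2 and GL261 are each a single line, so the replicates measure the spread between cultures of the same line, not between animals.

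Cells that lack oxygen rely on glycolysis for ATP. Slc2a1 (GLUT1) and Slc2a3 (GLUT3) carry glucose across the plasma membrane, while Slc16a1 (MCT1) and Slc16a3 (MCT4) move lactate together with a proton, MCT4 being the form typical of cells that export lactate. The pyruvate dehydrogenase kinases switch off the enzyme that feeds pyruvate into mitochondria. Pfkfb3 and Pfkfb4 set the level of fructose 2,6-bisphosphate, the strongest activator of phosphofructokinase. Several of these genes are textbook targets of the hypoxia-inducible factors (HIF), which bind short DNA elements with the core ACGTG or GCGTG.

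The sequences just upstream of 4 transcription starts are shown because the accessible regions described below cover these starts, and that of Slc16a3 because no library had a peak at its start. Each is the 250 bases before the start from the RefSeq promoter table of GRCm38.p6, written 5′ to 3′ in the direction of the gene. Capitals mark ACGTG or GCGTG on either strand, so that a match on the opposite strand reads CACGT or CACGC.
Slc2a1, chr4:119108495-119108744, plus strand: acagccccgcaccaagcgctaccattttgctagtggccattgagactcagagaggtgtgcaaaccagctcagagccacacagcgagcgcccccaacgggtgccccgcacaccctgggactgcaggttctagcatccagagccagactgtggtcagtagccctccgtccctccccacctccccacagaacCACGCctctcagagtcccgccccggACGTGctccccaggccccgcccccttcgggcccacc
Pdk1, chr2:71872974-71873223, plus strand: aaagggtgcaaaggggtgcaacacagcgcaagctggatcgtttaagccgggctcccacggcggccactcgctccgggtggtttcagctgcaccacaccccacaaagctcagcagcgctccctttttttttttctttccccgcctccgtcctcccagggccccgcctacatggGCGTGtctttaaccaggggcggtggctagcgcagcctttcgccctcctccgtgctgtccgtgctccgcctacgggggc
Pdk3, chrX:93832151-93832400, minus strand: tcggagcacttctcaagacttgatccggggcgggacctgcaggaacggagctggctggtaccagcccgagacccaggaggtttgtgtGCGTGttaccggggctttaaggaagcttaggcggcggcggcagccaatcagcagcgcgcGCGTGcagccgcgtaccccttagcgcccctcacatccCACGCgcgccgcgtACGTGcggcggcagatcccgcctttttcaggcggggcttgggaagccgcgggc
Pfkfb4, chr9:108991652-108991901, plus strand: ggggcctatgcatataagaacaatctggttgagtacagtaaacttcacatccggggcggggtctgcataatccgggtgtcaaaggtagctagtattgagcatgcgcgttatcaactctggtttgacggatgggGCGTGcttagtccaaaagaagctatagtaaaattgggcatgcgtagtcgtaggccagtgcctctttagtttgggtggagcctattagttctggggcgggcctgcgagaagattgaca
Slc16a3, chr11:120948817-120949066, plus strand: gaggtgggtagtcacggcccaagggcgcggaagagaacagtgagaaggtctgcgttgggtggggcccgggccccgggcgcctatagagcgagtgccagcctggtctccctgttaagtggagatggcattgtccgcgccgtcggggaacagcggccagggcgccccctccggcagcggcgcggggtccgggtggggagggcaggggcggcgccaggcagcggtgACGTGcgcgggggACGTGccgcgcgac
Slc2a1 held an ACGTG 36 bases before its start and a GCGTG on the other strand at 61 bases. Slc16a3 held ACGTG at 27 and 14 bases, Pdk1 GCGTG at 78 bases and Pfkfb4 GCGTG at 117 bases before the start. Pdk3 held 4 matches, with its ACGTG at 53 bases. Of the 9 promoters that the table lists for 7 of the genes (Slc2a3 has no entry), 8 held at least 1 core. Over all 32851 mouse promoters of that length, 38.6% held 1 of the 2, with ACGTG in 16.6% and GCGTG in 28.2%. Member promoters were rich in G and C, from 60.4% to 76.4% outside Pdk1's second promoter (38.4%) and Pfkfb4 (50.0%), against a median of 52.4% over all promoters. A match of 5 letters is a description of the sequence and not a binding site.

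The lists differed in length, and this touches every count that follows. They held 13333 and 9910 peaks in monoculture normoxia, 24370 and 26339 in monoculture hypoxia, 21790 and 21826 in co-culture normoxia, and 29658 and 21633 in co-culture hypoxia. The number of reads is unknown, but the commonest background that the lists imply was lowest in monoculture normoxia (0.758 and 1.03 fragments per position, against 1.07 to 1.45 in the other 6 libraries). A missing peak therefore says only that the region did not pass the threshold in that library. The part of library depth in the gains in the next paragraphs was not tested. Fewer accessible copies and fewer cells with an accessible copy cannot be told apart in these bulk samples. Of 10 microglia and macrophage marker genes, 7 and 6 had a peak within 10 kb in the normoxic monocultures and from 8 to 10 in the other 6 libraries. Of their 29 regions, 9 had a peak in both hypoxic and neither normoxic monoculture, where 17.7% of all regions did, and 5 had one in both normoxic co-cultures and neither normoxic monoculture, where 12.5% did. Among the 29, 2 regions (6.90%, against 2.08% of all regions) were called in each of the 4 hypoxic libraries and in none of the normoxic ones. Both lie at Ptprc, which encodes the CD45 used for sorting. Of 10 glioma and glial marker genes, 1, 1, 1 and 2 had a peak in the monocultures and 7, 2, 6 and 4 in the co-cultures. None of their 18 regions had a peak in all co-cultures and no monoculture. With co-culture in hypoxia 2 were gained, at Sox2 and Nes, where 5.83% of all regions were, and with hypoxia in co-culture 1 was, at Vcan, where 6.09% were. The part of either marker list in the results that follow was not tested.

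Peaks near these 8 genes were fewest in normoxic monoculture, as were peaks over the genome. The normoxic monocultures had a peak in 9.5 ± 2.12 member regions, the hypoxic monocultures in 18 ± 1.41, and the normoxic and the hypoxic co-cultures in 18.5 ± 0.707 each (SD, n = 2 libraries a group). As a share of the 27 regions these were 35.2%, 66.7%, 68.5% and 68.5%, against 26.98%, 59.8%, 51.6% and 61.1% of all 40784 regions. Of the 8 genes, 6 and 5 had a peak in the normoxic monocultures, 8 and 7 in the normoxic co-cultures, and all 8 in each of the 4 hypoxic libraries. Of the 15213 protein-coding genes with any region within 10 kb, 61.6 and 51.4% had a peak in the normoxic monocultures, 84.9 and 86.2% in the normoxic co-cultures, and from 82.8 to 92.9% in the hypoxic libraries. Pdk1 and Slc16a3 were the genes with no peak in either normoxic monoculture. Of the 27 regions, 5 had a peak in all 8 libraries (18.5%, against 15.6% of all regions): the Slc2a1 start, a second Slc2a1 region inside the gene, a region beyond Slc2a3, the Pdk3 start and the Pfkfb4 start.

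**Figure D1:**
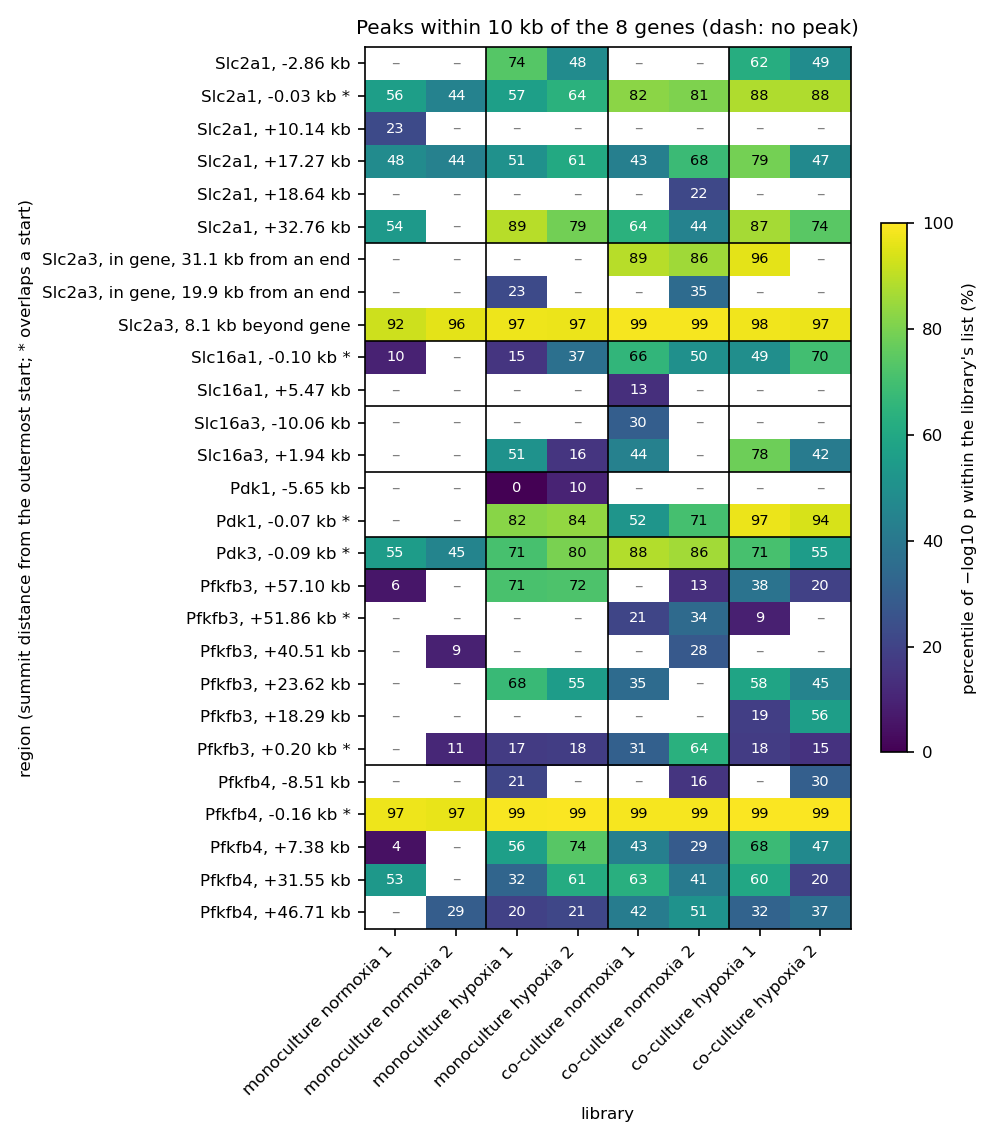
Each row is 1 of the 27 regions, labelled by gene and by the distance of its summit from the outermost transcription start in kb (for Slc2a3, by its place relative to the gene), and each column is 1 of the 8 libraries. Colour and number give the percentile (%) of the strongest peak there among all peaks of that library, ordered by −log10 p, and a dash means no peak; the Pfkfb4 start stays at 96.8 or above, while the first Slc2a1 region has a peak only in the 4 hypoxic libraries.

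Calls between groups were made by presence. A region counted as gained when every library of the first group and none of the second had a peak, and as lost in the reverse case. Between the 4 hypoxic and the 4 normoxic libraries 1 of 27 member regions was gained, at Slc2a1, and none lost, where 2.08% of all regions were gained and 0.0196% lost. Between the 4 co-culture and the 4 monoculture libraries no member region was gained or lost, against 1.98% and 0.027% of all regions. With hypoxia in monoculture 5 member regions were gained (18.5%, against 17.7% of all regions) and 0 lost (against 0.179%). With hypoxia in co-culture 2 were gained (7.41%, against 6.09%) and 0 lost (against 2.05%). With co-culture in normoxia 3 were gained (11.1%, against 12.5%) and 0 lost (against 0.181%), and with co-culture in hypoxia 1 was gained (against 5.83%) and 1 lost (against 3.76%). With 27 regions none of these shares is read as different from that of all regions, and with 2 libraries a side no exact permutation test can go below p = 0.333.

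Slc2a1, the main glucose transporter of many cell types, held the member region that followed oxygen in both cultures. The region chr4:119105692-119106084 has its summit 2861.5 bp upstream of the start, where the RefSeq annotation also has the non-coding gene Gm52706. It had no peak in any normoxic library. Its peaks held percentiles of 73.8 and 48.1 in the hypoxic monocultures and 62.2 and 48.7 in the hypoxic co-cultures, where the percentile counts the peaks of the same list with a −log10 p no higher than this one. Placed by −log10 p among the regions called in all 8 libraries, these peaks would stand at 39.9, 12.6, 23.5 and 19.8%. The summits held 56, 49, 63 and 50 fragments, as solved from the deposited fold and p. When each list was cut to its 9910 strongest peaks, this region was called only in monoculture hypoxia replicate 1, so that the gain was lost.

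The start of Slc2a1 itself had a peak in every library, and its rank separated the cultures but not the oxygen levels. Its region, chr4:119108429-119109330, had its summit from −133 to 11 bases relative to the start, with a median of −26, which takes in the cores shown above. Percentiles within lists of different length do not compare libraries. For that, each region was placed among the 6375 regions called in all 8, and the shared-set percentile is its position by −log10 p in that set. It was 34.4 and 25.8 in monoculture normoxia, 20.4 and 26.0 in monoculture hypoxia, 51.9 and 48.3 in co-culture normoxia, and 63.9 and 71.7 in co-culture hypoxia. Every co-culture library lay above every monoculture library, and the oxygen groups overlapped. On the normal scores of these ranks, in units of 1 SD over regions, the co-cultures were higher by 0.86 ± 0.19 (SE; limma over 8 libraries, Benjamini-Hochberg adjusted p = 0.0278), a call made in that direction for 4.99% of the shared regions. In hypoxia alone the difference was 1.1999 ± 0.27 (SE; limma, adjusted p = 0.0434), a call made for 2.81%. That call was lost with the replicate number as a block (limma, adjusted p = 0.0527) and when ranked by fold enrichment (limma, adjusted p = 0.309). It stood without either normoxic monoculture and was lost without any other library (limma, adjusted p from 0.0588 to 0.272). In normoxia alone it was 0.53 ± 0.27 (SE; limma, adjusted p = 0.365), and the interaction of oxygen and culture was 0.67 ± 0.38 (SE; limma, adjusted p = 0.567). Ranked by summit fragments the culture call stood (limma, adjusted p = 0.0173, a call made for 15.2%). Ranked by fold enrichment it was lost (limma, adjusted p = 0.240), and 7 of the 6375 shared regions were then called higher in co-culture. It was also lost when any 1 library other than the 2 of monoculture normoxia was left out (limma, adjusted p from 0.0596 to 0.110), with the difference between 0.81 and 0.92. In those 6 fits limma called 0 of 6404 to 6674 shared regions for culture, with 1405 to 1786 at an unadjusted p under 0.05, so every call was lost and not that of Slc2a1 alone.

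The local background around both shared Slc2a1 regions rose with hypoxia. This quantity is the number of fragments expected at the summit, solved from the deposited fold and p on the assumption that both follow the usual MACS2 formulas, which the labels do not state. Under that assumption it reflects how many fragments lie in the surroundings of a peak. At the start it was 4.07 and 3.81 times the commonest background of the library in monoculture normoxia, 5.83 and 6.83 times in monoculture hypoxia, 5.26 and 6.13 times in co-culture normoxia, and 8.64 and 8.91 times in co-culture hypoxia. Within each culture both hypoxic libraries lay above both normoxic ones. At the region inside the gene, chr4:119125442-119126219, the values were 4.35 and 3.83, then 7.12 and 12.05, then 5.53 and 5.11, then 11.5 and 8.01 in the same order of groups, and here all 4 hypoxic libraries lay above all 4 normoxic ones. Ranked among the 6320 shared regions that could be solved, the hypoxic libraries were higher by 0.69 ± 0.14 at the start (SE; limma, adjusted p = 0.00163) and by 1.13 ± 0.20 inside the gene (SE; limma, adjusted p = 0.000595), a call made in that direction for 21.3% of the shared regions. Both regions were also called within monoculture (limma, adjusted p = 0.0393 and 0.00894; 10.8% of shared regions) and within co-culture (limma, adjusted p = 0.0105 and 0.0119; 16.3%). The pooled calls stood whichever library was left out, and those within 1 culture did not. Within monoculture, leaving out normoxia replicate 1 or hypoxia replicate 1 ended the call at the start, and leaving out replicate 2 of either group ended both (limma, adjusted p of the lost calls from 0.0540 to 0.180). Within co-culture, the call at the start was lost without normoxia replicate 1, that inside the gene without normoxia replicate 2, and both without hypoxia replicate 1 (limma, adjusted p of the lost calls from 0.0692 to 0.140). The 2 regions lie in the same gene and are not independent of each other. Nor is the start independent of the upstream region that had a peak only in hypoxia. The local background there was 5.83 and 7.42 times the commonest in the hypoxic monocultures and 8.71 and 9.55 times in the hypoxic co-cultures. The part of that upstream peak in the rise at the start was not tested. The measure was added after the peak ranks had been seen.

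**Figure D2:**
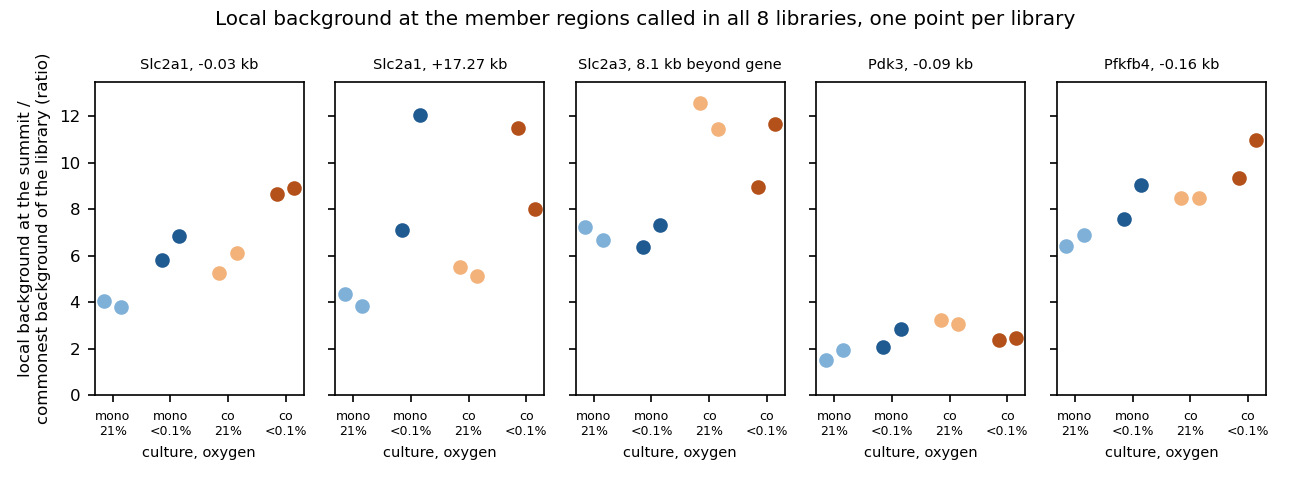
Each panel is 1 of the 5 member regions called in all 8 libraries, and each point is 1 library, grouped by culture (mono or co) and oxygen. The vertical axis is the local background at the summit as a ratio to the commonest background of the same library; at the region inside Slc2a1 the 4 hypoxic libraries lie from 7.12 to 12.05 and the 4 normoxic ones from 3.83 to 5.53.

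The rank of the inner Slc2a1 region showed no such order: its shared-set percentile was 26.9 and 25.4 in monoculture normoxia, 15.6 and 23.1 in monoculture hypoxia, 8.24 and 27.9 in co-culture normoxia, and 46.1 and 18.8 in co-culture hypoxia (oxygen difference 0.13 with an interval from −0.44 to 0.70; limma, adjusted p = 0.771). In lists of equal length it had a peak in both normoxic and neither hypoxic monoculture, a loss with hypoxia. Under the assumed formulas the p that orders the list is taken over the local background, so list position and background are tied. By summit fragments the region stood at 45.4 and 41.8% of the shared regions in the normoxic and 50.0 and 68.5% in the hypoxic monocultures. In the co-cultures it stood at 25.9 and 42.8% in normoxia and 76.4 and 48.5% in hypoxia. Downstream of the gene, the region chr4:119141149-119141816 had a peak in 7 libraries. Its percentile within the list was 54.0 in the 1 normoxic monoculture that had it, 89.2 and 78.6 in the hypoxic monocultures, 63.8 and 44.4 in the normoxic co-cultures, and 86.5 and 74.4 in the hypoxic co-cultures, with the hypoxic libraries above the normoxic ones. Placed among the shared regions, these peaks stood at 45.2 to 68.1% in the 4 hypoxic libraries and at 8.35 to 32.5% in the 3 normoxic ones. With no peak in monoculture normoxia replicate 2, it was not among the shared regions that were fitted. The remaining Slc2a1 regions had a peak in 1 library each.

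Slc2a3, the high-affinity glucose transporter known from neurons and leukocytes, had a region inside the gene, chr6:122758677-122759234, that was gained with co-culture in normoxia. It had no peak in any monoculture. It reached percentiles of 89.4 and 85.8 in the normoxic co-cultures and 95.8 in hypoxic co-culture replicate 1, and had no peak in replicate 2 of that group, so the hypoxic co-cultures differed from each other. The same 3 libraries had it in lists of equal length. A second region, chr6:122810484-122812040, lies 8121 bp beyond the gene and 9137.5 bp from an end of Foxj2, and held percentiles from 92.3 to 98.6 in all 8 libraries. Its rank did not pass the test for oxygen (difference −0.15, interval −0.58 to 0.28; limma, adjusted p = 0.638) or culture (0.25, interval −0.18 to 0.69; limma, adjusted p = 0.394). Its local background was higher in co-culture by 0.40 ± 0.13 (SE; limma, adjusted p = 0.0269), a call made for 21.4% of shared regions, which was lost without monoculture normoxia replicate 2, either hypoxic monoculture, co-culture normoxia replicate 1 or co-culture hypoxia replicate 2 (limma, adjusted p from 0.0595 to 0.0906). Strand and start of Slc2a3 are not in the promoter table.

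A peak was called over the start of one lactate transporter and not over that of the other. At Slc16a1 the start region chr3:104637736-104639035 had a peak in 7 libraries. Its percentile within the list was 9.76 in the 1 normoxic monoculture that had it, 15.4 and 37.0 in the hypoxic monocultures, 65.7 and 50.2 in the normoxic co-cultures and 49.4 and 69.6 in the hypoxic co-cultures. Placed among the shared regions, the co-culture peaks stood at 11.6 to 42.1% and the monoculture peaks at 1.15 to 6.92%, so the cultures did not overlap. At Slc16a3, whose product exports lactate from glycolytic cells, no library had a peak over the start. The nearest region, chr11:120950553-120951195, has its summit 1935 bp past the listed start. It was gained with hypoxia in monoculture, at percentiles of 50.8 and 15.6, and reached 43.9 in normoxic co-culture replicate 1 and 77.9 and 41.7 in the hypoxic co-cultures. In lists of equal length only hypoxic co-culture replicate 1 had it.

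Pdk1, a kinase that turns off pyruvate dehydrogenase and a known HIF target, had a start region with no peak in some libraries and a high rank in others. The region chr2:71872665-71873584 had no peak in either normoxic monoculture. Its percentile was 82.3 and 83.9 in the hypoxic monocultures, 52.3 and 70.6 in the normoxic co-cultures, and 97.0 and 94.1 in the hypoxic co-cultures. Among the shared regions the same peaks would stand at 53.6 and 55.1, 13.2 and 31.3, and 88.2 and 84.1%. Summit fragments numbered 48 and 53, then 24 and 36, then 120 and 103. In co-culture both hypoxic libraries therefore ranked the start above both normoxic ones, and in hypoxia both co-cultures ranked it above both monocultures. The region was gained with hypoxia in monoculture and with co-culture in normoxia. In lists of equal length it was absent from normoxic co-culture replicate 1 too, so that only the first of these gains stood. With no peak in 2 libraries it could not be fitted over shared regions, and no test was made. A weak region with its summit at −5654 bp from the start, chr2:71867211-71867667, had a peak only in the hypoxic monocultures, at percentiles of 0.261 and 9.98.

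**Figure D3:**
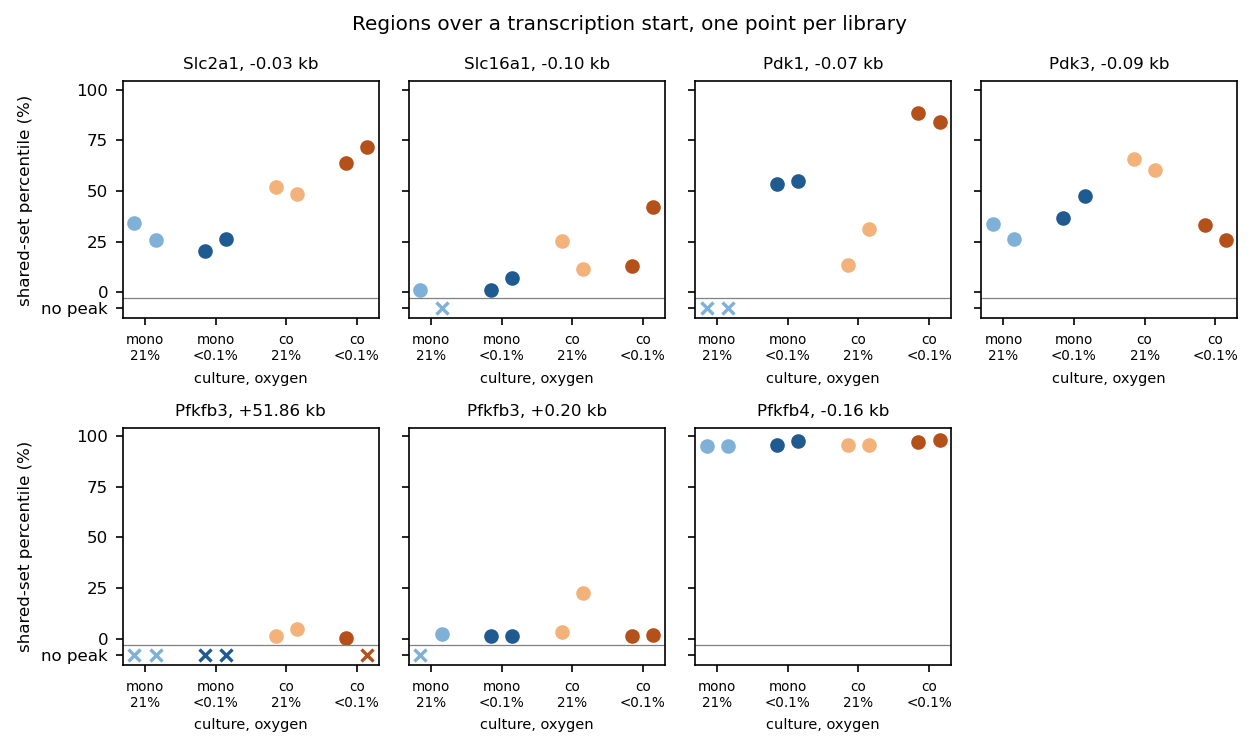
Each panel is 1 of the 7 member regions that overlap a transcription start, each point is 1 library, and the vertical axis is the shared-set percentile, the position of the peak by −log10 p among the regions called in all 8 libraries; crosses mark libraries with no peak. The Pdk1 start runs from no peak in monoculture normoxia to 84.1 and 88.2 in co-culture hypoxia, the Slc2a1 start separates the cultures, and the Pfkfb4 start stays at 94.9 or above.

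Pdk3, the isoform of the same kinase encoded on the X chromosome, had a single region, over its start (chrX:93831721-93832644). Its shared-set percentile was 33.7 and 26.4 in monoculture normoxia, 36.4 and 47.3 in monoculture hypoxia, 65.8 and 60.1 in co-culture normoxia, and 33.2 and 25.8 in co-culture hypoxia. Both hypoxic libraries ranked it higher in monoculture and lower in co-culture. The hypoxia difference was 0.32 ± 0.27 in monoculture (SE; limma, adjusted p = 0.532) and −0.87 ± 0.27 in co-culture (SE; limma, adjusted p = 0.111). The interaction was −1.19 ± 0.38 (SE; limma, unadjusted p = 0.0108, adjusted p = 0.411), so the difference between the cultures did not pass the threshold over all regions. Its local background stood at percentiles of 5.57 and 13.8 among the shared regions in monoculture normoxia, 17.5 and 29.4 in monoculture hypoxia, 31.3 and 33.2 in co-culture normoxia, and 20.5 and 23.0 in co-culture hypoxia. The co-cultures lay above the monocultures in normoxia, and in hypoxia the cultures overlapped. The co-culture difference was 0.88 ± 0.22 in normoxia (SE; limma, adjusted p = 0.0288, a call made for 4.08% of shared regions) and −0.04 ± 0.22 in hypoxia (SE; limma, adjusted p = 0.893), with an interaction of −0.93 ± 0.31 that did not pass the threshold (SE; limma, adjusted p = 0.129). Over both oxygen levels it was 0.42 ± 0.15 (SE; limma, adjusted p = 0.0391). That pooled call stood without replicate 2 of either monoculture group and was lost without any 1 of the other 6 libraries (limma, adjusted p from 0.0602 to 0.159). The call in normoxia was lost without monoculture normoxia replicate 1 or either normoxic co-culture (limma, adjusted p from 0.103 to 0.132).

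**Figure D4:**
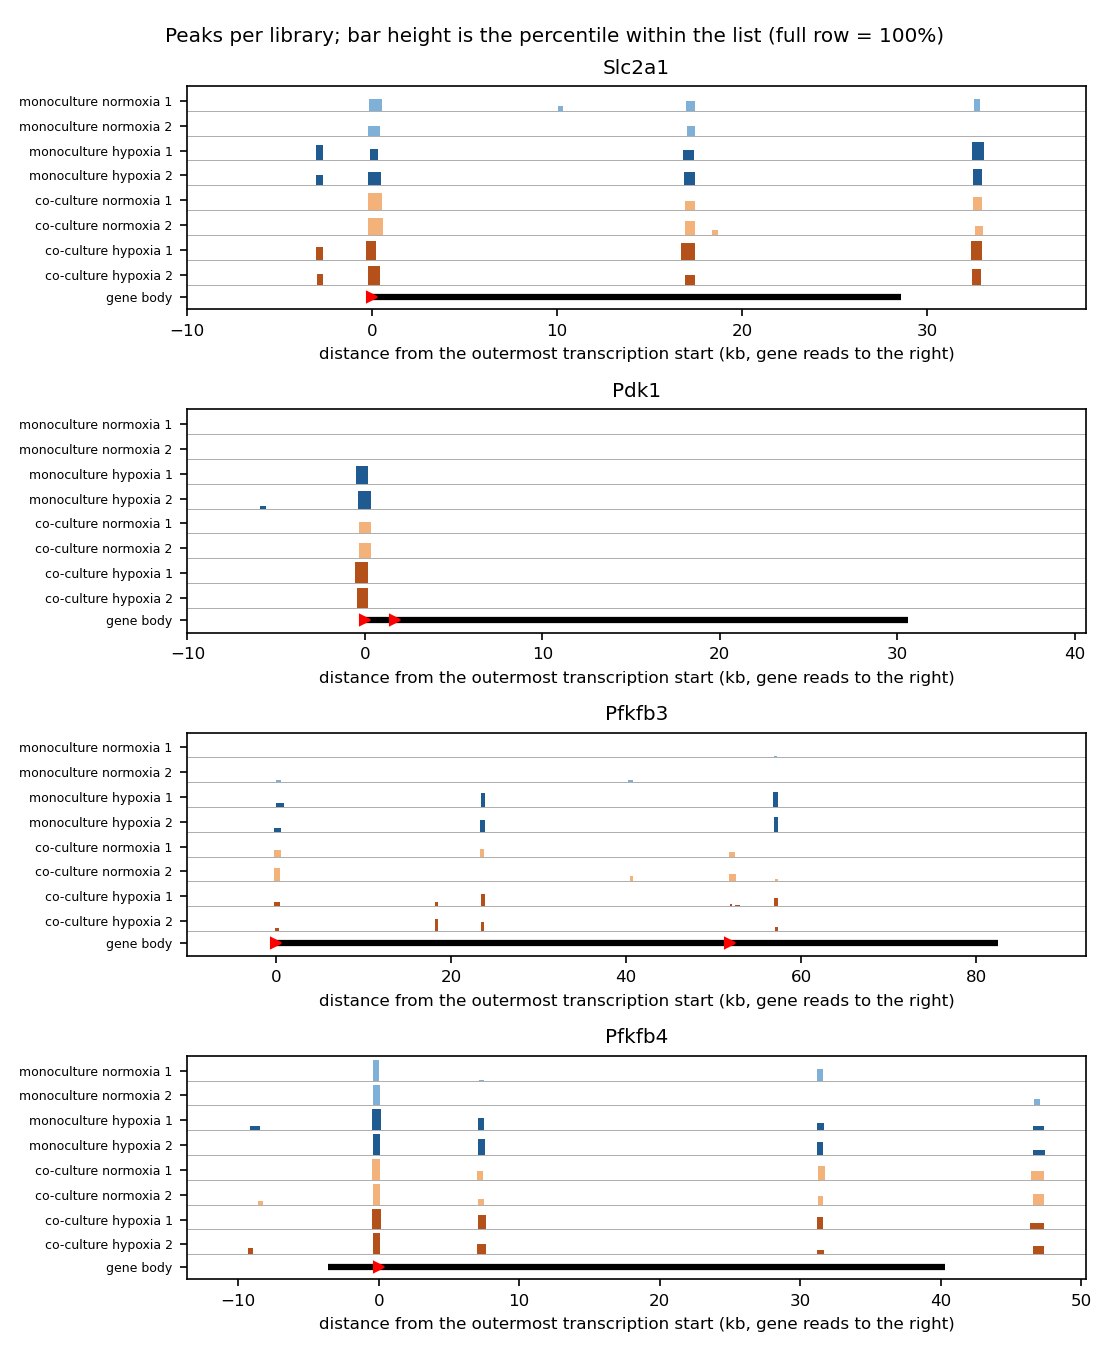
Peaks around Slc2a1, Pdk1, Pfkfb3 and Pfkfb4 in each of the 8 libraries, against the distance in kb from the outermost transcription start, with the gene reading to the right; bar width is the length of the peak, bar height its percentile within the list, the black line the gene body and red arrowheads the annotated starts. The first Slc2a1 region upstream of the start appears in the 4 hypoxic libraries, and Pdk1 has no bar in the normoxic monocultures.

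Pfkfb4, the form of the enzyme named for testis and known as strongly hypoxia-inducible, had the highest-ranked start of the 7 genes with a listed start. The region chr9:108991438-108992034 held percentiles of 97.4 and 96.8 in monoculture normoxia, 98.8 and 99.4 in monoculture hypoxia, 98.7 and 98.7 in co-culture normoxia, and 99.3 and 99.4 in co-culture hypoxia. Its median summit lay at −160.5 bases from the start. The rank difference was 0.25 for oxygen (interval −0.16 to 0.67; limma, adjusted p = 0.382) and 0.08 for culture (interval −0.33 to 0.50; limma, adjusted p = 0.788). A region with its summit 7375 bp into the gene (chr9:108998882-108999533) had a peak in 7 libraries, at percentiles of 4.31 in monoculture normoxia, 56.4 and 73.9 in monoculture hypoxia, 43.1 and 28.9 in co-culture normoxia, and 68.3 and 47.4 in co-culture hypoxia. The 2 outermost Pfkfb4 regions lie at other genes, one overlapping Col7a1 and the other overlapping Shisa5, with its summit 45 bp from an end of that gene.

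Pfkfb3, whose product favours synthesis of fructose 2,6-bisphosphate, had weaker and more scattered regions, none called in all 8 libraries. Its outer start (chr2:11553011-11554204) had a peak in 7 libraries at percentiles from 11.1 to 63.6. Placed among the shared regions it stood at 3.42 and 22.7% in the normoxic co-cultures and from 1.43 to 2.09% in the other 5 libraries, so a single library stood apart. Its second start (chr2:11500947-11502207) had a peak in both normoxic co-cultures (20.9 and 34.4) and in 1 hypoxic co-culture (8.80), and was gained with co-culture in normoxia. Inside the gene, chr2:11530072-11530634 was gained with hypoxia in monoculture, at 67.9 and 55.3, and also had peaks in 3 co-cultures at 34.8, 58.5 and 44.6. The region chr2:11535467-11535792 appeared only in the hypoxic co-cultures, at 18.5 and 56.0. The region chr2:11496584-11497181 held 71.1 and 72.0 in the hypoxic monocultures and at most 38.3 in the 4 other libraries that had it, or 36.5 and 35.5% against at most 7.17% among the shared regions. In lists of equal length the gains at the other Pfkfb3 regions were lost, and this region was called only in the hypoxic monocultures, which made it a gain with hypoxia in monoculture and a loss with co-culture in hypoxia.

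Over the 5 member regions in all 8 libraries, none changed rank with oxygen at the adjusted threshold (limma). Of the 6375 shared regions, 10.1% changed in either direction. At an unadjusted p under 0.05 (limma) there were 0 of the 5 member regions and 1906 of the 6375 shared regions. Among all other genes, the shared regions most like the Pdk3 start over the 8 libraries, by Pearson r of the normal score among 3227 regions at gene ends, were those of Pigk (r = 0.961), Usp46 (0.911) and Abcd2 (0.894). Those most like the Slc2a1 start were at Atp5b (0.997), the nonagouti gene a (0.982) and Vps26c (0.976). An r over 0.9 was held by 2 of the 3227 regions for the Pdk3 start and by 66 for the Slc2a1 start, so the pattern of the latter was shared by many regions. The points are 8 libraries that share depth and list length, so these values are a description.

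The other genes of the pathway were counted by the same rules. Of all regions, 2.08% were gained and 0.0196% lost in the 4 hypoxic against the 4 normoxic libraries. In the 4 co-cultures against the 4 monocultures, 1.98% were gained and 0.027% lost. With hypoxia 17.7% were gained in monoculture and 6.09% in co-culture, and 0.179% and 2.05% lost. With co-culture 12.5% were gained in normoxia and 5.83% in hypoxia, and 0.181% and 3.76% lost. With so few regions a list, no count below is read as different from these shares. Of 9 other sugar transporters, 7 had 18 regions, with none gained or lost between the 4 hypoxic and 4 normoxic or the 4 co-culture and 4 monoculture libraries. Within a culture or oxygen level, 2 of the 18 were gained with hypoxia in monoculture, 2 with hypoxia in co-culture, 4 with co-culture in normoxia and 3 with co-culture in hypoxia, and 0 were lost. Of 5 other monocarboxylate transporters and partners, 3 had 10 regions. One of them, at Bsg, the chaperone that brings MCT1 and MCT4 to the membrane, was gained in all 4 co-cultures, at percentiles from 5.90 to 17.3, and 1 at Emb, a related chaperone, was lost with co-culture in hypoxia. The 7 other regulators of pyruvate dehydrogenase had 10 regions with no such gain or loss, and 1 at Pdk2 was gained with hypoxia in co-culture and with co-culture in hypoxia. Among 6 other phosphofructokinase genes with 17 regions, Pfkp, the platelet form of the enzyme itself, had one region gained in all 4 hypoxic libraries (percentiles from 49.1 to 69.3) and another gained in all 4 co-cultures (from 9.04 to 31.7). In the contrasts within a culture or oxygen level, the 17 regions gave 1, 1, 3 and 1 gains in the same order, and 1 loss, with hypoxia in co-culture. Of 15 glycolytic enzymes with 40 regions, Aldoa, an aldolase, had 1 region gained in all 4 co-cultures (from 26.3 to 65.8), and none was gained or lost with oxygen in this way. Within a culture or oxygen level, 3, 2, 4 and 3 of the 40 were gained in the same order, and 1 was lost with hypoxia in monoculture and 2 with hypoxia in co-culture.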

How the data were processed

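ATAC-seq peaks were taken from 1 deposited list for each of 8 BV2 libraries, so the authors called peaks per library. The submitters' processing notes name Trimmomatic 0.36, HISAT2 2.1.0, Picard, SAMtools, deepTools and MACS2 2.1.1.2, and the build mm10; their settings, and any shift for the Tn5 insertion, are not given in the sources used here. The authors deposited for each peak a score, a fold enrichment (a ratio to the local background) and a summit offset. The significance of each peak was deposited as −log10 of p and −log10 of q. The lowest −log10 q was just above 2 in each list. Folds and p-values are the authors'. They were used to rank peaks within a list and to solve for the fragments behind each summit.

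Members and pathway lists were chosen with earlier results of these data known. For each gene the region nearest its start, each region gained or lost in any contrast, and its region with the highest minimum percentile are named, and other regions were chosen after their values were seen. Gene positions and promoters came from RefSeq tables of GRCm38.p6. Ranks by −log10 p over the 6375 regions called in all 8 libraries were turned into normal scores and fitted with limma 3.58.1 in R 4.3.3, with 4 group means and Benjamini-Hochberg adjustment over all regions at a threshold of 0.05. Summit fragments n and local background b were solved on the assumption of a fold of (n + 1)/(b + 1) and a Poisson p of exceeding n over a mean of b, formulas not given in the sources used here, to within 0.001 in −log10 p, for peaks with a −log10 p below 250. This succeeded in all 8 libraries for 6320 of the 6375 regions, and both measures were added after the data were seen. Scripts were tested on simulated data. Tables were made with pandas 2.3.3 and scipy 1.17.1 under Python 3.11.15, and plots with matplotlib 3.10.9. Alternatives were lists of equal length (9910 peaks), a −log10 q of at least 3, windows of 250 bp on each side of summits, lists without peaks wider than 10 kb, ranks by fold, percentiles without normal scores, a replicate block, and leaving out each library in turn.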

Additional observations from a re-analysis of the deposited data

Results flagged for a closer look

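At the start region of Pdk3 the order of the oxygen groups by rank was opposite in the 2 cultures. Both hypoxic libraries ranked it higher than both normoxic ones in monoculture and lower than both in co-culture. Neither hypoxia difference in the rank of this region passed the threshold (limma). The interaction of oxygen and culture in its normal score was −1.193 (limma, unadjusted p = 0.0108, adjusted p = 0.411 over all shared regions), so it did not pass the threshold. Over the alternatives on the same scale it lay between −1.44 and −1.05, and the adjusted p between 0.178 and 0.882.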

How the results depend on the processing

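No called result turned its direction, but differences that passed no test did: the oxygen difference in rank at the Slc2a1 start, 0.13, was −0.46 when ranked by fold enrichment and about 0 (−0.0029) without monoculture normoxia replicate 2. In lists of equal length there were 19 member regions among 19790. Those gained with hypoxia numbered 0 between the 4 hypoxic and 4 normoxic libraries (1.07% of all regions), 2 in monoculture (7.39%) and 0 in co-culture (5.45%), 1 was lost with hypoxia in monoculture (the region inside Slc2a1; 5.15%), and gains with co-culture numbered 1 in normoxia (4.88%) and 0 in hypoxia (7.39%). The 1 region lost with co-culture in hypoxia (7.01%) was then at Pfkfb3 and not at Pdk1. With the stricter threshold 0 member regions were lost with co-culture in hypoxia (3.83% of all regions). Ranked by fold enrichment, 0 member regions were higher in co-culture (7 of the 6375 shared regions), and the Slc2a1 start had an adjusted p of 0.240 (limma). Leaving out 1 library loosens the rule for gained and lost regions by construction, and in the fits its group keeps 1 sample, which is assumed to vary like the other groups. Gained regions then ranged from 1 to 3 (hypoxia, 4 against 4; 2.21 to 4.53% of all regions), 0 to 2 (co-culture, 4 against 4; 2.03 to 2.88%), 5 to 10 (hypoxia in monoculture; 18.0 to 31.2%), 2 to 4 (hypoxia in co-culture; 6.10 to 21.0%), 3 to 7 (co-culture in normoxia; 12.7 to 21.9%) and 1 to 3 (co-culture in hypoxia; 5.84 to 17.2%). Lost regions ranged from 0 to 1 for hypoxia in monoculture (0.183 to 1.94%) and for co-culture in normoxia (0.187 to 2.61%), 0 to 3 for hypoxia in co-culture (2.05 to 7.01%) and 1 to 2 for co-culture in hypoxia (3.78 to 12.4%). Regions higher in rank ranged from 0 to 1 for hypoxia (0 to 7.45% of shared regions) and 0 to 2 for co-culture (0 to 6.97%). The 1 and the 2 came without monoculture normoxia replicate 2, when 9 member regions could be fitted, 4 of them only because the library without a peak was left out. Of those 4, the Pfkfb4 region at 7375 bp was called for hypoxia (limma, adjusted p = 0.0218) and the Slc16a1 start for co-culture (0.0493), and the downstream Slc2a1 region (hypoxia, 0.0790) and the other Pfkfb4 region (hypoxia, 0.364) were not. These values rest on a single normoxic monoculture. Regions with a higher local background in co-culture, 2 with all libraries, ranged from 0 to 1 (15.8 to 20.8% of shared regions), and with hypoxia the count was 2 whichever library was left out (15.6 to 20.6%). The cause of these shifts was not tested.

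Same-numbered replicates deviated together with correlations from −0.040 to 0.176, so the numbers were not taken as pairs. With the replicate block, 1 member region was higher in rank in co-culture (287 of the 6375 shared regions) and 0 in hypoxia (289 of 6375). Local background was higher at 2 in co-culture (1400 of the 6320 solved regions) and at 2 in hypoxia (1413 of 6320). Within monoculture it was higher in hypoxia at 3 with the block (757 of 6320) and at 2 without it (684 of 6320). The rank difference of the Slc2a1 start within hypoxia had an adjusted p of 0.0527 with the block (limma). Read totals are not known, so a missing peak may lie just under the threshold. A promoter match covers 250 bases only, and peaks more than 10 kb from a gene were not read.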
